A study of Mus musculus with 16 samples.

Results

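Lck, Zap70, Lat, Blnk and Blk encode kinases and adaptors that act next to the T cell and B cell antigen receptors. They were taken by gene name from 3 deposited tables of expression in mouse hepatic stellate cells, the perivascular cells of the liver that store retinoids and lay down scar when activated. All 5 genes had a row in the table of quiescent hepatic stellate cells (qHSCs), which has 5716 rows. None had a row in the GFP-high table of activated cells (aHSCs), which has 231 rows, and 1, Blnk, had a row in the GFP-low table of 568 rows. The 3 tables hold 6193 different row names.

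The antigen receptors have no kinase activity of their own. In T cells the Src family kinase Lck, bound to CD4 or CD8, phosphorylates the CD3 and zeta chains, the Syk family kinase ZAP-70 docks there, and ZAP-70 then phosphorylates the membrane scaffold LAT. In B cells Src family kinases, among them Blk, act on the chains encoded by Cd79a and Cd79b, and BLNK is the scaffold that joins Syk and Btk to phospholipase C. These genes are known for their expression in lymphocytes, and Blnk also for expression in monocytes and macrophages. The liver holds resident T, B and NK cells beside its stellate cells.

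The study traced stellate cells from the embryonic mesothelium, the layer that covers the liver, and then deleted WT1, a transcription factor of that layer. The qHSCs came from 3 uninjured C57/Bl6 WT1CreERT2;Ai14 mice, in which tamoxifen at E10.5 switched on a red fluorescent protein (RFP) in cells that then expressed Wt1, so both fractions carry a Cre inserted at Wt1, heterozygous in the study's text, and the Ai14 reporter. Cells of each liver were enriched by density centrifugation and sorted into lineage label-negative and lineage label-positive fractions, 3 samples each from the same 3 animals. These mice are male by their labels, but female in the methods given for such isolations. The aHSCs came from male C57/Bl6 mice given CCl4 for 8 weeks. Both of their genotypes carry PDGFRbCre, a Cre active in cells that express or have expressed Pdgfrb, the Ai14 reporter and a Wt1 allele that drives GFP. Controls were PDGFRbCre;WT1_+_GFP;Ai14 and WT1-deleted animals were PDGFRbCre;WT1_fl_GFP;Ai14. RFP-positive cells were sorted by GFP, with 3 control and 3 WT1-deleted samples for GFP-high and 2 and 2 for GFP-low, the fraction that the study also calls GFP-intermediate. One GFP-low control sample was pooled from 2 animals. All GFP-low samples came from animals that also gave GFP-high samples, with 6 animals in all, so the GFP fractions are not independent. The sources used here describe no gate that removed lymphocytes.

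The files hold 1 FPKM for each group and gene, combined over samples by the authors. FPKM is fragments mapped to a gene, scaled by transcript length and by the total mapped. There is thus no value per sample, no spread and no test for any result given here, and the depth is unknown. A named gene is taken to have a row only where the authors called it as different. The qHSC table has as many rows as the study reports differing genes. Both aHSC tables hold more named rows than the study reports genes changed by WT1 deletion. The sources used here do not say why. If rows are called genes, a gene without a row was not called, which is not the same as unchanged. In bulk samples fewer cells of a type and less RNA per cell cannot be told apart. Of 12 stellate cell genes checked against the name of the cells, 7 had a row in the qHSC table and 5 did not, among them Lrat, Des and Reln. The level of those 5 in either fraction is not known. The 7 summed to 144 FPKM in label-negative cells against 100.02 FPKM in label-positive cells, a sum over called genes only. Dcn, the highest of them, was at 109 and 49.01 FPKM and Vipr1 at 15.3 and 2.35 FPKM, while Hgf was at 17.0 and 44.1 FPKM. The other 4, Pdgfrb, Ngfr, Rgs5 and Colec11, were below 1 FPKM in label-negative cells.

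Promoter windows from RefSeq, on build GRCm38.p6, were read to show what the transcript starts of the members share. Each window runs from 250 bases before to 50 bases from an annotated start. RefSeq windows matched 4 of the 5 members, with 7 starts in all. The 2 windows of Lck are shown because its distal and proximal starts are far apart, at chr4:129573592-129573891 and chr4:129558323-129558622, both on the minus strand. The first Zap70 window is at chr1:36761548-36761847 on the plus strand and the Blnk window at chr19:40994172-40994471 on the minus strand, and they are shown beside Lck as the windows of a T cell kinase and of the B cell scaffold. Capitals mark matches, on either strand, to 4 motif spellings: AGGAAGT (ETS), TGTGGTT (RUNX), ATGCAAAT (octamer) and CAGGTG (E2A E-box).
Lck, distal start: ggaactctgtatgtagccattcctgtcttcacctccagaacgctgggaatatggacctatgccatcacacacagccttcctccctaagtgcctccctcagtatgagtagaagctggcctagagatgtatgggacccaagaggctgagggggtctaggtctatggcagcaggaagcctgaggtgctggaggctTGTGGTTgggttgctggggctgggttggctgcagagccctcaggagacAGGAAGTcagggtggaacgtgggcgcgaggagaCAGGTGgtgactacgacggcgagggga
Lck, proximal start: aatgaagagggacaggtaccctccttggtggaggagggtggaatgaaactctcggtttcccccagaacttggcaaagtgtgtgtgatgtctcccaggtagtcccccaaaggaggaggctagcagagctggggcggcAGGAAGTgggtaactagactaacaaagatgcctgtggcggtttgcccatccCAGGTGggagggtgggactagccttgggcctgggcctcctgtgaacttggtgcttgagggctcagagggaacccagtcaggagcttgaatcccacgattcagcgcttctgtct
Zap70, first start: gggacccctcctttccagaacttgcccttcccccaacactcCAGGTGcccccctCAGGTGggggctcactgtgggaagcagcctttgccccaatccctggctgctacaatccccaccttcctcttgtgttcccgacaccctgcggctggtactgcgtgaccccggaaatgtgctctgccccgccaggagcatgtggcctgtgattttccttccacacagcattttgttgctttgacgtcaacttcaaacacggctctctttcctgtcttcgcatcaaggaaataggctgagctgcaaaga
Blnk: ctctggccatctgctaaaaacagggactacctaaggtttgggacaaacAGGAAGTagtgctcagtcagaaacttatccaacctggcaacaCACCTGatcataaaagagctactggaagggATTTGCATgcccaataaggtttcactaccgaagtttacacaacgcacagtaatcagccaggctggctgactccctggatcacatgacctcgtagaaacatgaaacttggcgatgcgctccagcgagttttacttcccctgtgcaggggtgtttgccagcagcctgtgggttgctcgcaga

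Both Lck windows held an ETS match, at bases -10 to -4 of the distal and -114 to -108 of the proximal window, counting the annotated start as 0. The distal Lck window alone held a RUNX match, at -58 to -52. Both Lck windows also held an E-box match, at 23 to 28 of the distal and -63 to -58 of the proximal window. The first Zap70 window held 2 E-box matches and the third Zap70 window held 1. Of the 4 members searched, which leave out Blk, Blnk alone held an octamer, a motif known from immunoglobulin promoters. This octamer lies at -130 to -123, on the strand opposite to the one printed. The Blnk window also held an ETS and an E-box match. The second Zap70 window and the Lat window, at chr7:126369519-126369818, held none of the 5 motifs searched, and no member window held the fifth, the TATA box TATAAA. Among 32817 promoter windows of the same length the share with a match was 9.35% for ETS, 5.27% for RUNX, 1.74% for the octamer, 13.6% for the TATA box and 20.2% for the E-box. No match in the windows overlaps another. The motifs were chosen after the windows had been seen, and a match describes letters, not a bound site. GC content was 65.7% in the Lat window and 50% in the Blnk window, against a median of 52.7% over all windows.

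**Figure D1:**
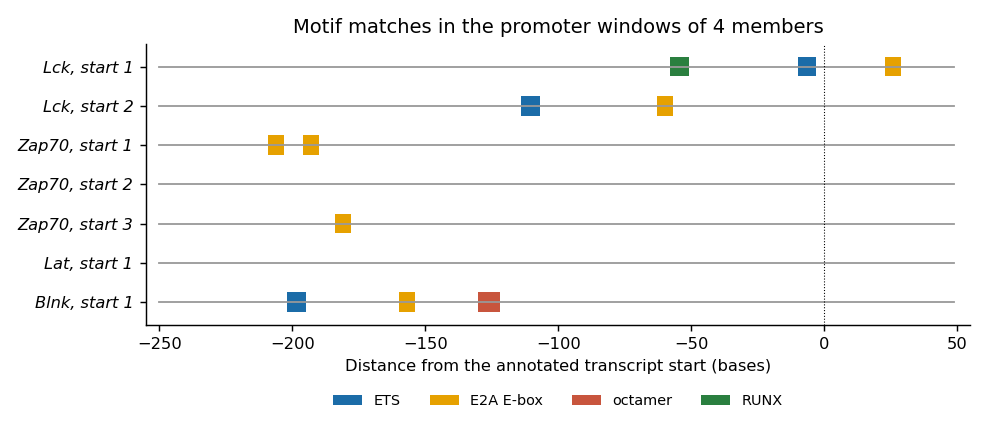
Position of motif matches (coloured bars, on either strand) in the 7 promoter windows of Lck, Zap70, Lat and Blnk, by distance in bases from the annotated transcript start, which is 0 (dotted line). ETS matches lie in both Lck windows and in Blnk, and the only octamer lies in Blnk.

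All 5 members were lower in lineage label-positive than in lineage label-negative qHSCs. The fold ranged from 11.7 for Blnk to 28.7 for Lat. Over all rows of the qHSC table, 49.6% of rows were lower in label-positive cells and 26.1% were at least 4-fold lower, and all 5 members were at least 4-fold lower. The median log2 ratio of the members, label-positive over label-negative, was -3.63, against 0.64 over the 5584 rows above 0 in both groups. The members were named with results of these data in view, so their number is a description.

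**Figure D2:**
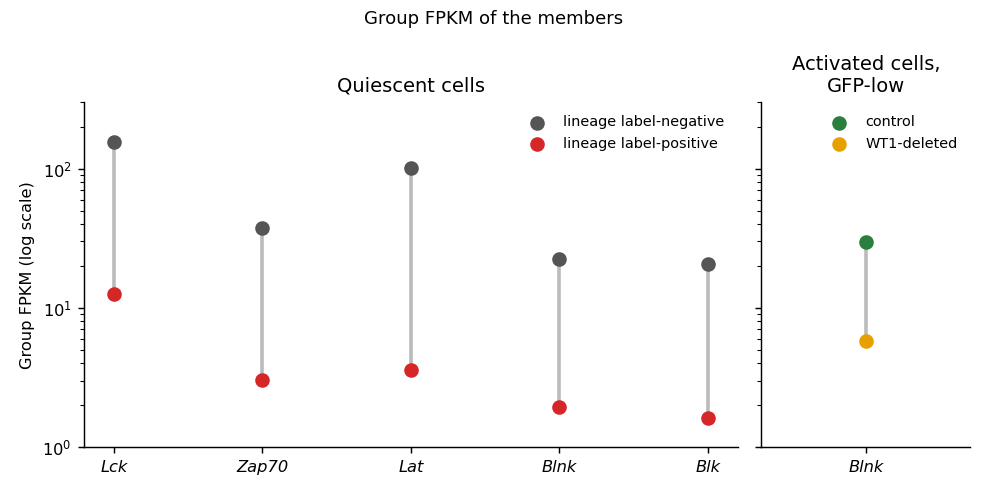
Group FPKM (log scale) of the 5 members in label-negative and label-positive qHSCs, and of Blnk in control and WT1-deleted GFP-low aHSCs, 1 authors' value per point with no error bars because no values per sample were used. Every label-positive point, between 1.61 and 12.6 FPKM, lies below every label-negative point, between 20.6 and 156 FPKM, and the panels were normalised separately.

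Lck, which starts the signal of the T cell receptor, had the highest level of the 5 in both fractions. Its FPKM was 156 in label-negative against 12.6 in label-positive qHSCs, a log2 ratio of -3.63, or 12.4-fold lower. In label-negative cells it ranked 315 of 5716 rows, and in label-positive cells 2279. The gene lies at chr4:129548344-129573641 on the minus strand (GENCODE vM21, GRCm38), and both promoter windows shown above overlap this interval. It overlaps only the small RNA gene Mir8119, on the same strand.

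Zap70, the kinase that docks on the phosphorylated receptor chains, was at 37.2 FPKM in label-negative and 3.005 FPKM in label-positive cells. Its log2 ratio was -3.63 and its fold 12.4, which match those of Lck to the digits given. The FPKM of Lck divided by that of Zap70 was accordingly 4.19 in both fractions. Zap70 lies at chr1:36761798-36782818 on the plus strand and overlaps the pseudogene Gm18828 on the opposite strand by 1012 bases. This overlap is between whole gene spans. No stretch of 50 bases in the Zap70 transcript compared occurred, on either strand, in a transcript of another gene. Whether the counting used strand is not given in the sources used here.

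Lat, the membrane scaffold phosphorylated by ZAP-70, had the lowest ratio of the 5. It was at 102 FPKM in label-negative and 3.55 FPKM in label-positive cells, a log2 ratio of -4.84, or 28.7-fold lower. Of the 5584 rows above 0 in both groups, 1.88% had a lower ratio than Lat, against 7.36% for Lck and 7.34% for Zap70. These shares leave out 122 rows listed at 0 in label-positive cells, which are lower there too. In these group values the proportions among the 3 T cell genes therefore differed between the fractions, with no spread to judge the difference by. Lat was at 2.74 times the FPKM of Zap70 in label-negative and 1.18 times in label-positive cells, and Lck was at 1.53 and 3.55 times the FPKM of Lat. Lat lies at chr7:126363824-126369570 on the minus strand and overlaps the small RNA gene Mir7058.

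Blnk, the B cell scaffold, had 22.6 FPKM in label-negative and 1.93 FPKM in label-positive cells, a log2 ratio of -3.55. Blk, the Src family kinase of B cells, had 20.6 FPKM and 1.61 FPKM, a log2 ratio of -3.68, or 12.8-fold lower. These 2 genes were close to each other in both fractions, with Blnk at 1.098 times the FPKM of Blk in label-negative and 1.20 times in label-positive cells. They ranked 1744 and 1864 of 5716 rows in label-negative cells. Blnk lies at chr19:40928927-40994535 and Blk at chr14:63372836-63417037, both on the minus strand, and neither overlaps another annotated gene.

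The order of levels was the same in both fractions: Lck, Lat, Zap70, Blnk, Blk. FPKM is per length, so these levels can be set beside each other within a fraction. Without a spread over samples it cannot be said which neighbours in the order differ, and Blnk and Blk, or Lat and Zap70 in label-positive cells at 3.55 and 3.005 FPKM, are the closest pairs. Summed over the members, FPKM was 338 in label-negative against 22.7 in label-positive cells.

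Lck and Blk belong to the same kinase family, and their sequences were compared. The longest stretch that their coding sequences share is 20 bases, starting at coding base 1135 of Lck and 1072 of Blk in the transcripts compared, and is printed in capitals as all of it is shared.
Lck and Blk, shared: GCCAACATCCTGGTGTCTGA
No stretch of 50 bases in the transcript taken for any of the 5 members occurred in a transcript of another gene, so 0% of such stretches were shared.

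**Figure D3:**
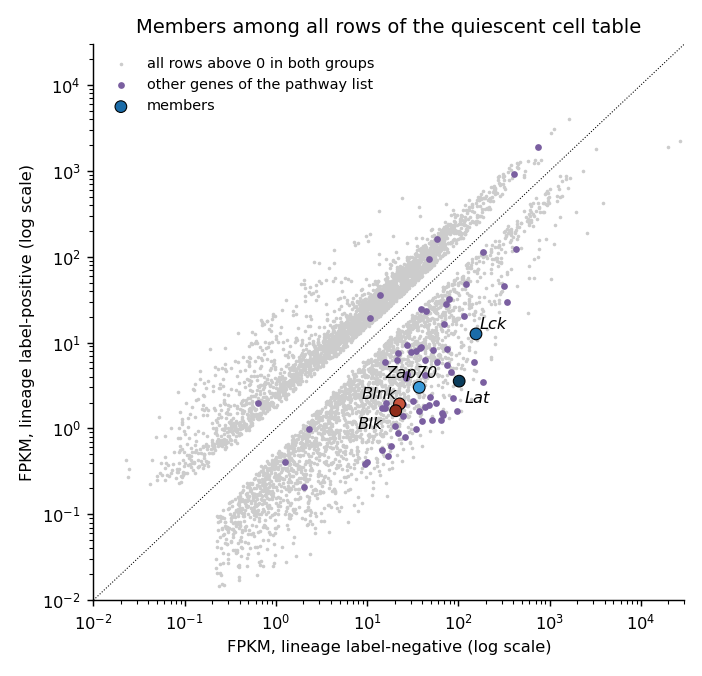
Group FPKM of each row of the qHSC table that was above 0 in both groups, label-negative on the x axis and label-positive on the y axis (both log scales), with the 5 members (large points, labelled) and the other genes of the antigen receptor pathway list (purple). The dotted line marks equal levels, and the band along it is empty in a table of called genes. All 5 members lie below the line.

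By Euclidean distance over the 2 group values, on a log2 scale, the row nearest to Lck was Cd69, an early activation marker of lymphocytes, with 158 FPKM in label-negative and 12.3 FPKM in label-positive cells. S100a4 and Dusp2 came next. The row nearest to Lat was Cd3e, a chain of the T cell receptor complex, at 101 and 3.68 FPKM, followed by the receptor constant region Trbc1 and by H2-Ob. Nearest to Zap70 were Sept6, Sash3 and Stap1. Blnk stood nearest to the immunoglobulin segments Igkv4-57 and Ighv1-22 and to Tnfrsf13b, a receptor of B cells. Blk stood nearest to Tcrg-C4, a constant region of the gamma T cell receptor, at 20.4 and 1.62 FPKM, then to Kcnn4 and Ubxn11. These rest on 2 values per gene among 5580 rows and describe likeness of level only.

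The wider pathway was taken as a list of 85 genes, of which 73 had a row in the qHSC table. Of these, 66 were lower in label-positive cells, 7 were higher, and 52 were at least 4-fold lower (71.2%, against 26.1% of all rows). Without the members, 61 of 68 rows were lower, with a median log2 ratio of -3.16, and 12 of them had a lower ratio than Lat. The 12 listed genes with no row include Fyn, the other Src family kinase of T cells, Lyn, a main Src family kinase of B cells, and Lcp2, which encodes SLP-76, the T cell relative of BLNK.

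All 10 genes of the T cell receptor complex and co-receptors were at least 4-fold lower, with a median log2 ratio of -4.81. Cd3g, one of the chains that Lck phosphorylates, had the highest label-negative level among them, at 147 FPKM against 5.98 FPKM in label-positive cells. Cd4 and Cd8a, whose products carry Lck to the receptor, were 15.3-fold and 41.5-fold lower. Lck stood at 1.54 times the FPKM of Cd3e in label-negative cells and 3.42 times in label-positive cells, and Zap70 at 0.368 and 0.816 times. Lat was near the level of Cd3e in both, at 1.01 and 0.965 times.

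Among T cell receptor kinases and phosphatases 9 of 10 genes had a row, all lower, and 7 were at least 4-fold lower. Lck and Zap70 were at the middle of this group, whose median log2 ratio was -3.63. Txk, a Tec family kinase of T cells, was 24.2-fold lower. Ptprc, which encodes the phosphatase CD45 that activates Lck and is carried by nearly all leukocytes, was at 337 FPKM in label-negative and 30.0 FPKM in label-positive cells, 11.2-fold lower. The FPKM of Lck was 0.463 times that of Ptprc in label-negative and 0.420 times in label-positive cells. Csk, the kinase that restrains Lck, was 2.58-fold lower, and Prkcq was 1.59-fold lower.

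Of 18 T cell receptor adaptors and exchange factors 15 had a row and 14 were at least 4-fold lower, with a median log2 ratio of -4.55. Lat was near this median. Grap2, which joins LAT to SLP-76, was 32.3-fold lower, Themis 35.6-fold lower and Skap1 21.2-fold lower. Fyb, an adaptor of T cells and myeloid cells, had the highest label-negative level of the group, at 114 FPKM against 20.4 FPKM. Nck1, a widely expressed adaptor, went the other way, at 47.8 FPKM in label-negative and 94.4 FPKM in label-positive cells.

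On the B cell side 6 of 8 genes of the receptor complex and co-receptors were at least 4-fold lower. Cd79a and Cd79b were 52.5-fold and 38.9-fold lower. Blk and Blnk thus had a smaller fold than these receptor genes. Blk was at 0.112 times the FPKM of Cd79a in label-negative and 0.458 times in label-positive cells, and Blnk at 0.123 and 0.549 times. The 2 genes that went the other way were Fcgr2b, an inhibitory receptor that sinusoidal endothelial cells also carry, at 750 and 1901 FPKM, and the widely expressed Cd81, at 406 and 909 FPKM.

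Of 7 B cell receptor kinases 6 had a row, all lower, with a median log2 ratio of -2.51. Blk had the lowest ratio of them. Syk, the kinase that takes the place of ZAP-70 in B cells and many myeloid cells, was at 75.4 and 8.45 FPKM, 8.91-fold lower, and Btk was 8.07-fold lower. Zap70 was at 0.494 times the FPKM of Syk in label-negative and 0.355 times in label-positive cells. Prkcb had the highest label-negative level of these kinases, at 78.3 FPKM, and was 2.45-fold lower. Of 14 adaptors and effectors 11 had a row, of which 7 were at least 4-fold lower, with a median of -2.13. Blnk was below this median. Rasgrp3, at 58.1 and 159 FPKM, and Vav3, at 10.8 and 19.1 FPKM, were higher in label-positive cells.

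Within the Src family the 6 kinases with a row differed in direction. Lck and Blk were 12.4-fold and 12.8-fold lower. Fgr, a family member of myeloid cells, was 3.99-fold lower. Yes1, which is widely expressed, was 2.54-fold higher and Frk, a kinase of epithelial cells, was 3.06-fold higher in label-positive cells, although Frk was at only 1.97 FPKM there. Among the relatives of LAT, which are membrane adaptors, Lat2 was 10.2-fold lower, Lax1 19.1-fold and Sit1 24.5-fold. Clnk, the relative of Blnk with a row, was 9.63-fold lower from 2.02 FPKM.

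Smaller lists gave lower counts. All 6 inhibitors of proximal signalling with a row were lower, 3 of them at least 4-fold, with a median of -1.77, and Inpp5d had the highest label-negative level at 120.0 FPKM. Among 4 other Src and Tec family kinases with a row 1, Tec, was at least 4-fold lower. All 4 immunoreceptor adaptors of NK and myeloid cells were lower, from 1.64-fold for Fcer1g to 13.97-fold for Hcst.

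**Figure D4:**
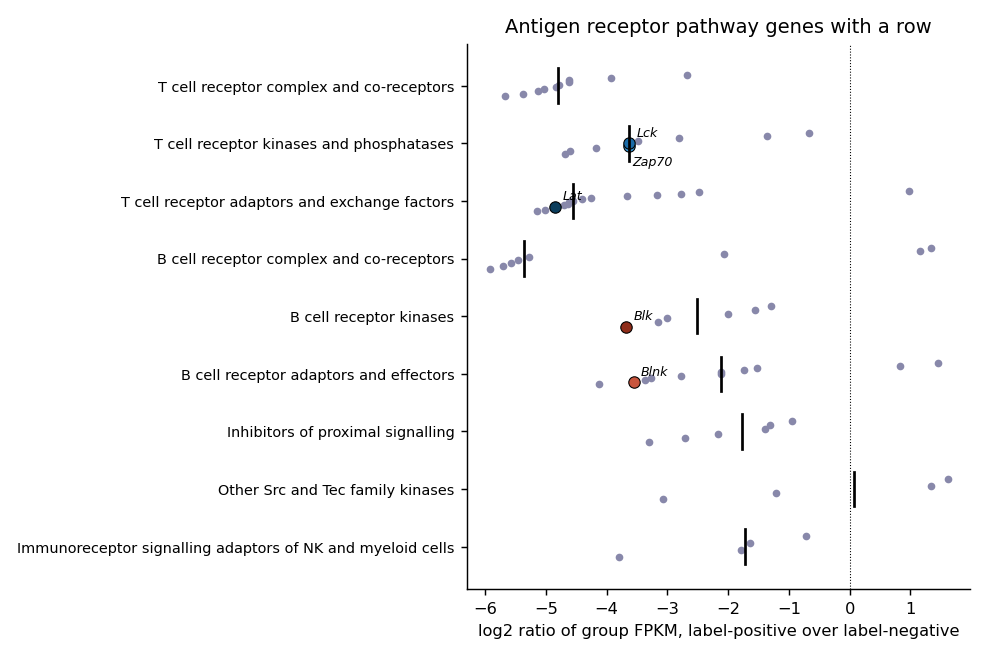
Log2 ratio of group FPKM, label-positive over label-negative qHSCs, for each gene of the pathway list with a row (points, slightly offset within a list), with the median of each list (black bar) and the members labelled. All members lie between -4.84 and -3.55, and the 7 genes right of the dotted line at 0 are higher in label-positive cells.

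Markers of lymphocytes and neutrophils moved with the members. All 9 T cell markers had a row and all were lower in label-positive cells, with log2 ratios from -5.59 to -4.62 and a summed FPKM of 814 in label-negative against 25.4 in label-positive cells. Lat, at -4.84, was within the range of the T cell markers, and Lck and Zap70, at -3.63, were outside it. All 8 B cell markers were lower, with a median of -5.46 and a sum of 1261 and 106 FPKM, and Ighm, at -2.84, was the one B cell marker above the ratios of Blk and Blnk. All 6 NK cell markers were lower, with a sum of 481 and 18.4 FPKM. None of the T, B or NK cell markers was at 0 in either fraction. All 4 neutrophil markers with a row were lower, with a median of -2.27. Of 4 plasmacytoid dendritic cell markers with a row 3 were lower, but Bst2, the highest, was at 170 and 298 FPKM. Their sum was 239 and 311 FPKM. Of 4 platelet and mast cell genes with a row, 3 were lower, but Kit, the highest, was at 70.6 and 139 FPKM. The sum of these 4 was 89.9 and 142 FPKM.

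Other markers went against the members. All 4 Kupffer cell and macrophage markers with a row were higher in label-positive cells, with a sum of 72.3 and 336 FPKM, as were all 5 sinusoidal endothelial markers, with a sum of 1762 and 4927 FPKM, and all 4 hepatocyte markers. Of the 7 stellate cell markers with a row, 4 were lower and 3 higher. The part that the share of lymphocytes in each fraction plays in the members' values was not tested.

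**Figure D5:**
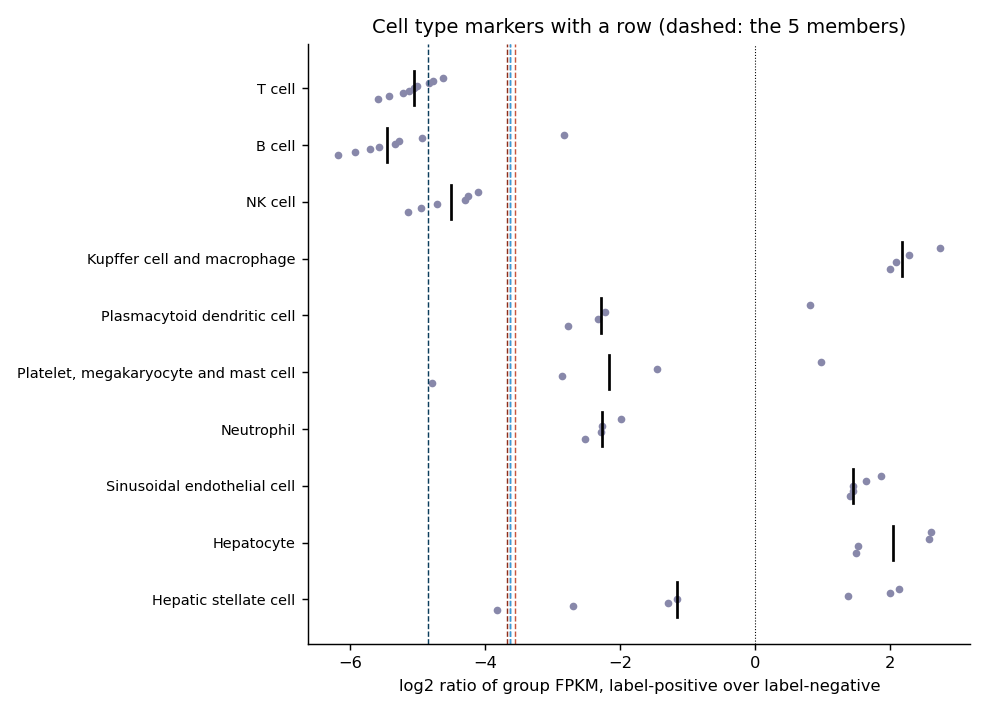
Log2 ratio of group FPKM, label-positive over label-negative qHSCs, for each marker with a row (points), with the median of each list (black bar). Dashed lines stand for the members, with Lat inside the range of the T cell markers and the other 4 members right of it.

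In aHSCs the question was what WT1 deletion changes, and Blnk was the only member with a value. In GFP-low cells Blnk was at 29.8 FPKM in control and 5.82 FPKM in WT1-deleted cells. This is a log2 ratio of -2.36, or 5.12-fold lower. Among all rows there, 67.3% of rows were lower in WT1-deleted cells and 37% were at least 4-fold lower. Of the 210 rows at least 4-fold lower, 146 were listed at 0 in WT1-deleted cells. Among rows above 0 in both groups, 7.31% had a lower ratio than Blnk. The table was normalised apart from the qHSC table, so its levels cannot be set against those above. Lck, Zap70, Lat and Blk had no row in it.

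The pathway list had 6 rows in the GFP-low table, all lower in WT1-deleted cells, against 67.3% of all rows there. None was a gene of the T cell receptor lists. Beside Blnk, only Cd22, an inhibitory co-receptor of B cells, was at least 4-fold lower, at 7.21 and 1.33 FPKM. These 2 are 33.3% of the listed rows, against 37% of all rows. Btk, which BLNK joins to phospholipase C in B cells, was at 16.5 and 6.45 FPKM. Prkcb was at 21.3 and 8.04 FPKM. Fcer1g, the receptor adaptor of myeloid and NK cells, was at 725 and 325 FPKM.

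Beside Blnk in this table, 5 of 6 Kupffer cell and macrophage markers had a row and all 5 were lower in WT1-deleted cells, with a median log2 ratio of -1.91 and a sum of 1037 and 314 FPKM. Among them Vsig4 was at 89.4 and 18.5 FPKM. Of 9 T cell markers none had a row, of 8 B cell markers 1 did, Cd22, and of 6 NK cell markers 1 did, Gzma, at 9.93 and 3.05 FPKM. All 3 neutrophil markers with a row and the platelet gene Pf4 were lower too. Of 3 stellate cell markers with a row, Colec11, at 2.92 and 10.7 FPKM, and Rgs5, at 1.41 and 8.20 FPKM, were higher in WT1-deleted cells, and Hgf, at 9.45 and 3.35 FPKM, was lower. The part of macrophages in the value of Blnk was not tested. In GFP-high cells the pathway list had 0 rows of 231. The only T cell marker there was Trac, in a row that names several genes, at 10.9 FPKM in control and 213 FPKM in WT1-deleted cells, with no row for Lck, Zap70 or Lat beside it. Pf4 was higher in WT1-deleted GFP-high cells, at 23.1 and 65.6 FPKM, and 4 of 5 neutrophil markers had a row, all lower.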

How the data were processed

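RNA was sequenced from 6 qHSC and 10 aHSC samples. Per the study's methods the authors sequenced on an Illumina HiSeq, mapped reads with bowtie 2 and called differences with Cuffdiff2 at an adjusted p of 0.05. The submitters' processing notes name TopHat2 2.0.3, Cufflinks 2.0.1, DESeq2 and the builds mm9 and mm10, without saying which made the files. The authors deposited FPKM values, 1 per group for each gene or position listed. Tables of the authors' fold changes, p-values and q-values were not used. Groups follow the sample labels.

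Log2 ratios of group FPKM were computed without a pseudocount in Python 3.11.15 with pandas 2.3.3 and numpy 2.4.6, after a check on simulated tables, and drawn with matplotlib 3.10.9. Some genes counted in the lists are not reported here by name. Genes named are the members, pathway genes with the highest label-negative level or a direction against their list, kinase and adaptor relatives, and the 3 nearest rows per member. The relatives, the motifs and a few further pathway genes were chosen after values were seen. Members and lists were chosen with earlier results of these data known. Alternatives were pseudocounts of 1 and 0.1 FPKM, a minimum of 1 FPKM in whichever group was higher, rows that name 1 gene, and 2-fold or 8-fold limits.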

Additional observations from a re-analysis of the deposited data

How the results depend on the processing

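With a pseudocount of 1 FPKM the log2 ratio, label-positive over label-negative, was -3.53 for Lck, -3.25 for Zap70, -4.50 for Lat, -3.01 for Blnk and -3.05 for Blk. With 0.1 FPKM it was -3.62, -3.59, -4.80, -3.49 and -3.60 in the same order. A pseudocount by construction draws ratios of low values toward 0. Added to both groups alike, it cannot change the direction of a ratio. The rest of the 20 alternatives were counts of rows, so none of them tested a direction. Of the pathway list, 50 to 52 rows stayed at least 4-fold lower under the pseudocounts and filters, 42 were at least 8-fold and 63 at least 2-fold lower. The counts of 66 lower rows, 0 GFP-high rows and 6 GFP-low rows were the same under each filter tried on them. These filters took out no row of the list, so the counts could not have changed. Every listed row reached 1 FPKM in its higher group, and no qHSC row names several genes. No paired analysis was possible because the files give 1 value per group, although both qHSC fractions came from the same 3 animals. For the same reason no replicate could be left out, and neither the depth nor the spread behind any value is known.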
